A study of Mus musculus with 20 samples.

Results

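Carbonic anhydrases are the enzymes that interconvert carbon dioxide and bicarbonate, and 9 genes of the family were followed in mouse liver: Car1, Car2, Car3, Car4, Car5a, Car5b, Car8, Car13 and Car14. They were picked by name from the 18193 genes that had a probe set of their own on the array. Where a gene had several, the one of highest mean level was read, so the levels given below are a description of that choice and were not tested. The 9 genes had 18 probe sets in all, and the others were compared with the chosen ones.

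Livers came from 20 male C57BL/6J mice, an inbred strain, labelled as 8 weeks old. After 1 week on a diet with 10 kcal% fat, 10 mice ate a high-fat diet with 45 kcal% fat for 4 weeks (HFD). The other 10 ate that same diet with 0.05% of a maple syrup extract, called "maple syrup extract high" in the labels (MSXH). All were killed on day 30 after a 16 h fast, and each liver gave 1 array of RNA labelled with a 3' IVT kit. Both groups thus share the fat, the sex, the age and the fast, and no low-fat mice were analysed here. The question asked of each gene is whether the extract changed its level in the fat-fed liver.

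Carbonic anhydrases hold a zinc ion that activates water, and they differ mainly in where in the cell they work. Car1, Car2, Car3 and Car13 are cytosolic, Car5a and Car5b are mitochondrial, Car4 and Car14 face the outside of the cell membrane, and Car8 is a related protein that has lost the enzyme activity. In liver the mitochondrial form supplies bicarbonate to the first step of the urea cycle and to pyruvate carboxylase, and Car3 is an abundant cytosolic protein with weak activity.

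Promoter sequences of 4 of the 9 genes were found in the RefSeq table of build GRCm38.p6 (Car4, Car5a, Car5b and Car14). Those of Car5a and Car14 are shown because these hepatocyte genes varied together among the HFD mice, as described below. Each run gives the 250 bases before a listed start, and the genes lie on different chromosomes: Car5a at chr8:121944913-121945162 and Car14 at chr3:95904686-95904935, both read on the minus strand. The start used for Car14 is not the gene's own annotated start. Both strands were searched for the TATA box TATAAA, the CCAAT box CCAAT, the GC box GGGCGG, the E-box CACGTG, the STAT-type motif TTCNNNGAA and the C/EBP-type motif TTGCNNAA, and capitals mark a match.
Car5a: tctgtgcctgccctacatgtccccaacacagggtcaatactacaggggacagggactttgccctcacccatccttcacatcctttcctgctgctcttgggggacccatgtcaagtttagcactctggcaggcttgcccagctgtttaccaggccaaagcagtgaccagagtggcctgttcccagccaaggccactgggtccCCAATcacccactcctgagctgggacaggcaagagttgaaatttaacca
Car14: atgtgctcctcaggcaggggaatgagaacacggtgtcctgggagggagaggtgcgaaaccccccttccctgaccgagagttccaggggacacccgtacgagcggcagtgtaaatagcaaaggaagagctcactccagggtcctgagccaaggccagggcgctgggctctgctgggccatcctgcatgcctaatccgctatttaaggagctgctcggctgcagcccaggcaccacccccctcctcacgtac
The Car5a run held 1 match, a CCAAT from 49 to 45 bases before the start, and the Car14 run held 0. Of 32851 mouse promoter windows of this length, 33.8% held the CCAAT box, 12.4% the TATA box, 32.7% the GC box, 6.02% the E-box, 7.02% the STAT-type motif and 9.56% the C/EBP-type motif. No motif's matches overlapped another's in these 2 runs. The GC content was 56% for Car5a and 62% for Car14, against a median of 52.4%. A match is a string of letters, and its absence says only that these letters are not in the window.

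The deposited values were taken as log2 levels, but they are compressed between arrays. Array medians all rounded to 6.507, and a typical (median) probe set had an SD of 9.34 millionths of a unit over the 20 mice. A difference on this scale is therefore no fold change. Sizes are given as Hedges' g, the MSXH minus HFD difference in units of the pooled SD within groups, with a 95% interval. Deviations are given in millionths of a deposited unit from the gene's mean over the 20 mice, and no level is compared between the family's genes. Genes of the other lists were picked by level only to choose which to name. The hepatocyte markers Alb (14.74), Apoa1 (14.59) and Ttr (14.46) were measured at high levels. Of 9 such markers 0 passed the limma test between diets (0 at an unadjusted p under 0.05, median g = -0.095). Alb, Apoa1, Ttr and Cyp2e1 barely varied, with SDs of 0.050, 0.055, 0.059 and 0.029 millionths. The variance that limma shares between genes outweighs spreads so small, so the test could hardly call these markers. Alb, with g = 0.403, had a limma unadjusted p of 0.973. No pair of arrays held identical values.

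Of the 9 genes, 6 lay above the level filter, the median of the probe sets (6.505), and entered the test over 11728 genes: Car1, Car2, Car3, Car5a, Car8 and Car14. Car4 (6.19), Car5b (6.12) and Car13 (5.87) lay below it. None of the 6 passed the test between diets. With limma and Benjamini-Hochberg adjustment, 0 of 6 passed an adjusted p of 0.05, where 0% of all genes did (smallest adjusted p = 0.9998). At an unadjusted p under 0.05 there were also 0 of 6, against 3.62% of all genes (425), with 1.88% higher (221) and 1.74% lower (204) in MSXH. A Wilcoxon rank-sum test called 0 genes too, with 399 at an unadjusted p under 0.05. Of the 6, 5 had g above 0, as did 49.4% of all genes. In all 6 genes the mice of the 2 diets overlapped, and 0% of all genes tested had groups that did not overlap. The median g of the 6 was 0.088, beside -0.0069 over all genes tested, where 95% of genes lay between -0.839 and 0.839.

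Car3 was the gene of the family with the widest spread between mice. Its level ran from 10.60 to 10.84 in HFD (median 10.76) and from 10.55 to 10.84 in MSXH (median 10.75). The diets overlapped over nearly their whole range, and the low end was formed by HFD replicates 9 and 10 and MSXH replicate 10. Group means were 10.74 ± 0.075 in HFD and 10.75 ± 0.086 in MSXH (SD, n = 10 each). The difference had g = 0.059 (95% interval -0.818 to 0.935, limma unadjusted p = 0.890, adjusted p = 0.9998), and the HFD median was exceeded by 5 of 10 MSXH mice. By SD over the 20 mice Car3 ranked 14 of 11728 genes on the compressed scale, while Car1 ranked 445, Car8 509, Car5a 582, Car14 958 and Car2 4292.

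**Figure D1:**
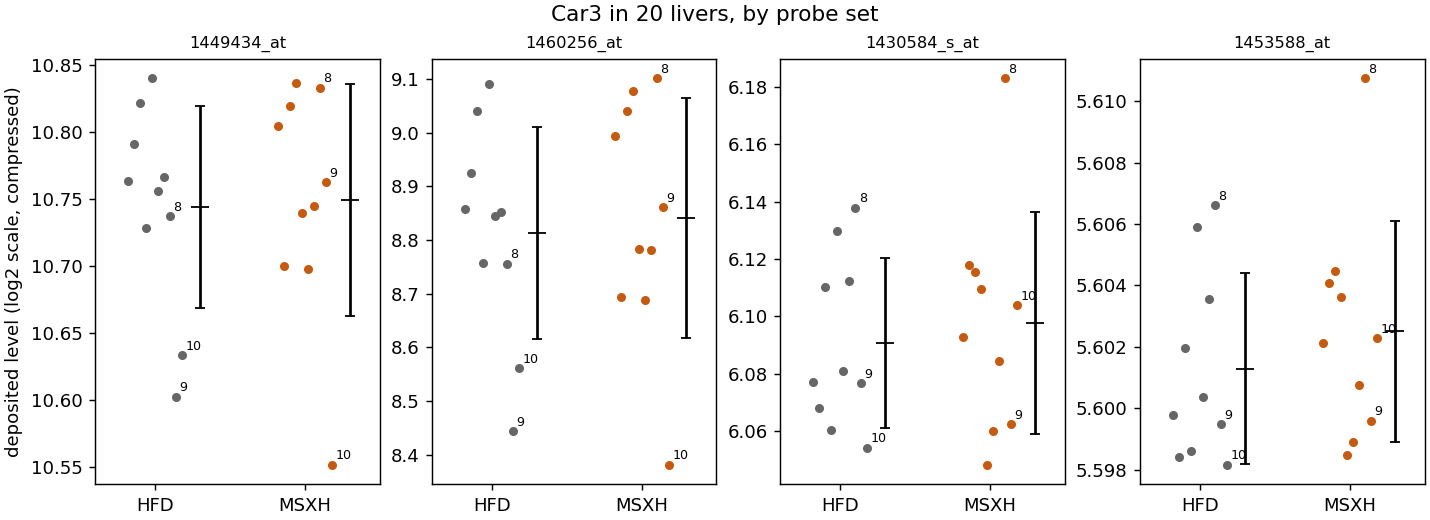
Deposited level (log2 scale, compressed) of Car3 in each of 20 mice, 1 panel per probe set, with HFD in grey and MSXH in orange; bars are the mean ± SD of 10 mice and numbers mark replicates 8 to 10. The panels 1449434_at and 1460256_at place HFD 9, HFD 10 and MSXH 10 lowest, whereas 1430584_s_at and 1453588_at place MSXH 8 highest.

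The 4 probe sets of Car3 fell into 2 pairs. The chosen 1449434_at and 1460256_at followed each other closely across mice (r = 0.990, rho = 0.986, n = 20), and so did 1430584_s_at and 1453588_at (r = 0.983, rho = 0.964). Across the pairs the correlation was much lower, at r = 0.389 between 1449434_at and 1430584_s_at and 0.416 between 1449434_at and 1453588_at. On 1460256_at the level ran from 8.44 to 9.09 in HFD and from 8.38 to 9.10 in MSXH. On 1430584_s_at it ran from 6.05 to 6.14 in HFD and from 6.05 to 6.18 in MSXH, below the level filter. MSXH replicate 10, the lowest mouse on the first pair, was near the mean on the second, where MSXH replicate 8 was highest. All 4 probe sets had g above 0 (0.059, 0.125, 0.195 and 0.347), and none had an unadjusted limma p below 0.418.

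Car1, a cytosolic enzyme best known from red blood cells, varied by less on the deposited scale. Its deviations ran from -950.4 to 791 millionths in HFD (median -45.5) and from -1080 to 1303 in MSXH (median -117). The diets overlapped, with replicate 10 lowest in both groups and MSXH replicate 8 highest of all mice. The difference of means was 60.6 millionths (g = 0.089, 95% interval -0.788 to 0.966, limma unadjusted p = 0.835, adjusted p = 0.9998). Car2, a fast enzyme of many tissues including red blood cells and bile ducts, deviated from -38.0 to 28.2 millionths in HFD (median -11.7) and from -36.2 to 43.8 in MSXH (median 7.49). The ranges overlapped, and the HFD median was exceeded by 7 of 10 MSXH mice. Its g of 0.512 was the highest of the 6 tested genes, but its interval of -0.379 to 1.40 spanned 0 (limma unadjusted p = 0.239, adjusted p = 0.9998).

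Car5a, the mitochondrial enzyme of hepatocytes, had deviations from -1017 to 677 millionths in HFD (median 102) and from -649.7 to 755 in MSXH (median -106). HFD replicate 3 was the lowest mouse, and the diets overlapped. Its g was -0.045 (95% interval -0.922 to 0.831, limma unadjusted p = 0.915, adjusted p = 0.9998), and the HFD median was exceeded by 3 of 10 MSXH mice. Car14, a membrane enzyme with its active site outside the cell, deviated from -508 to 252 millionths in HFD (median 78.7) and from -219.6 to 369.6 in MSXH (median -10.5). HFD replicate 3 was again lowest. Here g was 0.087 (95% interval -0.790 to 0.964, limma unadjusted p = 0.838, adjusted p = 0.9998).

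Car8, which binds the inositol trisphosphate receptor and has no enzyme activity, had deviations from -1049 to 898 millionths in HFD (median -145) and from -556 to 646 in MSXH (median 135). The MSXH mice lay inside the range of the HFD mice, and 7 of 10 exceeded the HFD median. Its g was 0.313 (95% interval -0.569 to 1.19, limma unadjusted p = 0.467, adjusted p = 0.9998). All 3 probe sets of Car8 followed each other (r = 0.698, 0.805 and 0.683), with g of 0.313, 0.0043 and 0.135.

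The 3 genes below the filter varied least between mice. Deviations ran from -9.34 to 12.3 millionths for Car4, from -10.6 to 10.3 for Car5b and from -14.9 to 13.7 for Car13, and the diets overlapped in each. Car4, an enzyme anchored to the outer face of the membrane, had g = -0.336 (95% interval -1.22 to 0.546). For Car5b, the mitochondrial form of many other tissues, g was -0.107 (-0.985 to 0.770), and for cytosolic Car13 it was -0.484 (-1.37 to 0.405). In a limma fit without the filter their unadjusted p-values were 0.441, 0.804 and 0.269, and each had an adjusted p of 0.999. Their probe sets did not follow each other well: r was -0.182 between the probe sets of Car4, 0.428 between those of Car5b, and 0.235, -0.374 and -0.097 among those of Car13. The sign of g differed between probe sets for Car5b and Car13. The signs of Car4 and Car5b turned when arrays were scaled to one median (g = 0.071 and 0.141) or by quantiles (0.165 and 0.075). Array medians ran from 6.506961 to 6.507005, a wider range than these genes had, so scaling to one median cannot settle their signs.

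**Figure D2:**
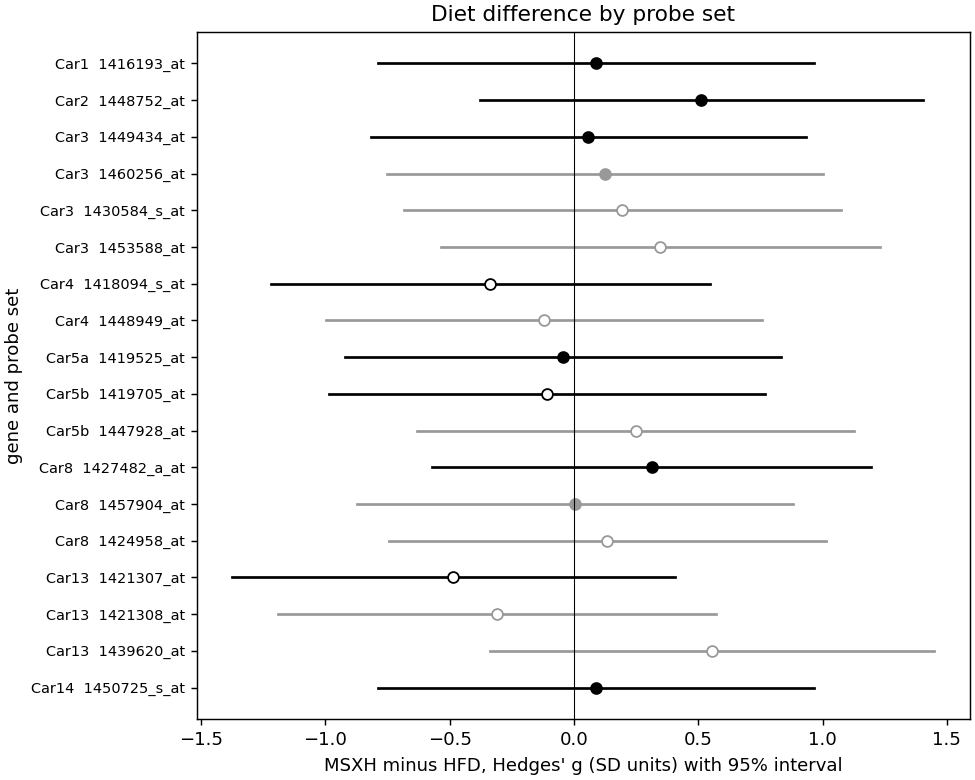
MSXH minus HFD difference as Hedges' g (SD units, points) with its 95% interval (lines) for the 18 probe sets; black marks the chosen probe set of each gene, grey the others, and open points lie below the level filter. Every interval spans 0, from Car13 1421307_at at -0.484 to Car13 1439620_at at 0.557.

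Several family members varied together from mouse to mouse. Of 36 pairs of genes, 11 had a Pearson correlation across the 20 mice that passed a permutation test after Benjamini-Hochberg adjustment over the pairs, and 10 of these also passed by Spearman's rho. The exception was Car5a with Car14. The share of pairs that would pass among other genes was not computed. The closest pair was Car1 and Car3 (r = 0.878, rho = 0.878, permutation p = 1e-05 for both, the smallest that 100000 permutations can give, adjusted p = 0.00036 for both). The same pair had r = 0.856 within HFD and 0.894 within MSXH, and 0.873 without MSXH replicates 8 and 10, the mice farthest from the median of Car1. Among all 11727 other genes, Car3 held place 11 in order of r with Car1, and Car1 held place 17 for Car3.

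Car2 followed both. Its correlation with Car3 was r = 0.738 and rho = 0.690 (permutation adjusted p = 0.00252 and 0.0131), with 0.692 within HFD and 0.805 within MSXH. Without HFD replicate 9 and MSXH replicate 10, r was 0.611 (permutation p = 0.00672). With Car1 it had r = 0.697 and rho = 0.669 (permutation adjusted p = 0.009 and 0.0173). Without MSXH replicates 8 and 10 this r fell to 0.562, with an adjusted permutation p of 0.0621. Among the 11727 other genes, Car2 held place 245 in order of r with Car3 and 331 with Car1. With the second pair of Car3 probe sets, Car1 had r = 0.435 and 0.445 and Car2 had 0.565 and 0.627. The relation of Car1 with Car3 thus depended on which Car3 probe sets were read, and the difference was not tested. Relations of Car3 with genes outside the family, given below, were read on its chosen probe set only.

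**Figure D3:**
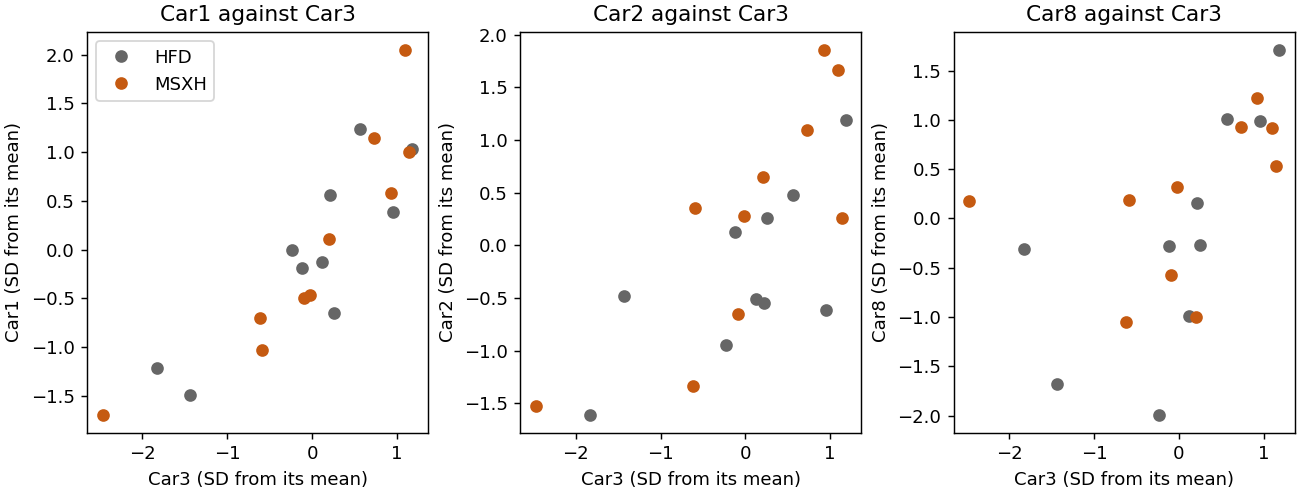
Car1, Car2 and Car8 plotted against Car3 in 20 mice, each in SD from the gene's mean over all mice, with HFD in grey and MSXH in orange. Car1 rises with Car3 along the whole range (r = 0.878), Car2 more loosely (0.738), and MSXH replicate 10, far left, lies off the trend of Car8 (0.538).

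Car8 also moved with these 3. Its correlation was r = 0.599 with Car2, 0.589 with Car1 and 0.538 with Car3 (permutation adjusted p = 0.0319, 0.0337 and 0.0474). For Car3 rho was higher, at 0.717, and r was 0.791 without HFD replicate 9 and MSXH replicate 10. In both of these mice Car3 was far below its mean while Car8 was close to its own. Among the 11727 other genes, Car8 held place 432 in order of r with Car2, 757 with Car1 and 1029 with Car3. Car5a and Car14 formed a pair of their own, with r = 0.568 (permutation adjusted p = 0.0337) but rho = 0.486 (permutation adjusted p = 0.104). That relation was r = 0.832 within HFD and 0.150 within MSXH, and it was 0.408 without HFD replicate 3 and MSXH replicate 8. Neither Car14 nor Car5a followed Car3 (r = -0.229 and 0.157).

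Car13, Car1, Car3 and Car2 are consecutive protein-coding genes on chromosome 3 in the RefSeq gene order. All 6 pairs among these neighbours were among the 11 that passed, with r from 0.575 to 0.878, as were 5 of the 30 other pairs. Car13 counted only through its chosen probe set, since r with Car3 was 0.642 there but 0.098 and -0.188 on its other probe sets. Its r with Car3 fell to 0.281 and with Car1 to 0.322 when arrays were scaled to one median. Array medians ran from 6.506961 to 6.507005, a wider range than Car13 had, and the scaling takes 1 shared value from every gene. It raised r of Car13 with Car4 from 0.570 to 0.885 and with Car5b from 0.315 to 0.864. The scaling therefore cannot show whether the pairs of Car13 hold. The array median itself correlated with Car13 (r = 0.358) more than with Car1 (0.043), Car2 (0.149) or Car3 (0.071). Of the 5 protein-coding genes before Car13, 3 of them below the filter, namely Ralyl, Slc7a12, Lrrcc1, E2f5 and Rbis, r with Car3 ran from -0.379 to 0.154. On the other side of Car2, Sirpb1a was the only measured gene of the next 5 and had r = 0.595 with Car3. Car14, elsewhere on chromosome 3, had r from -0.229 to 0.116 with these 4 genes.

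**Figure D4:**
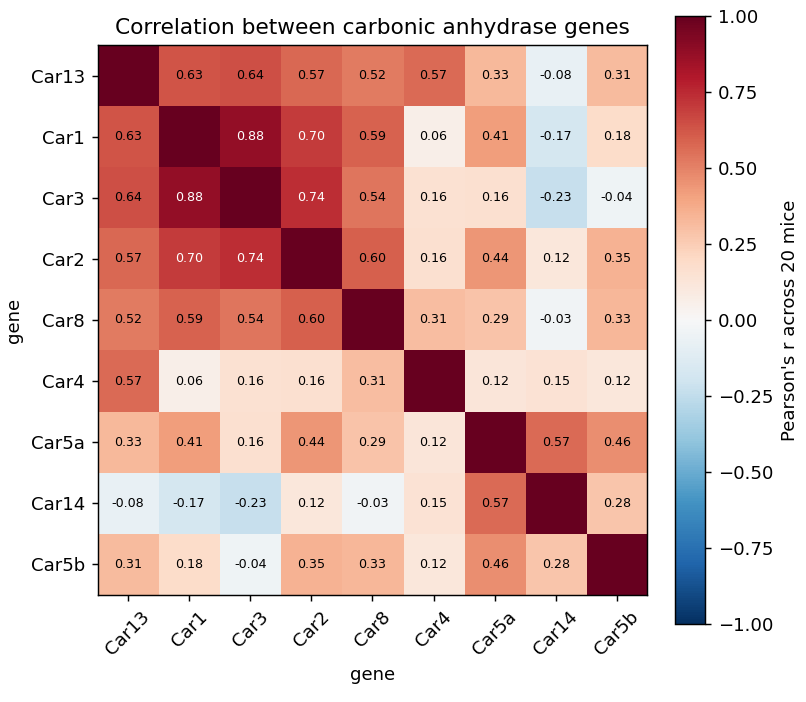
Pearson's r across 20 mice for each pair of carbonic anhydrase genes, with red above 0 and blue below, and the 4 neighbours on chromosome 3 first. The block of Car13, Car1, Car3 and Car2 runs from 0.575 to 0.878, while Car14 with Car3 is at -0.229.

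**Figure D5:**
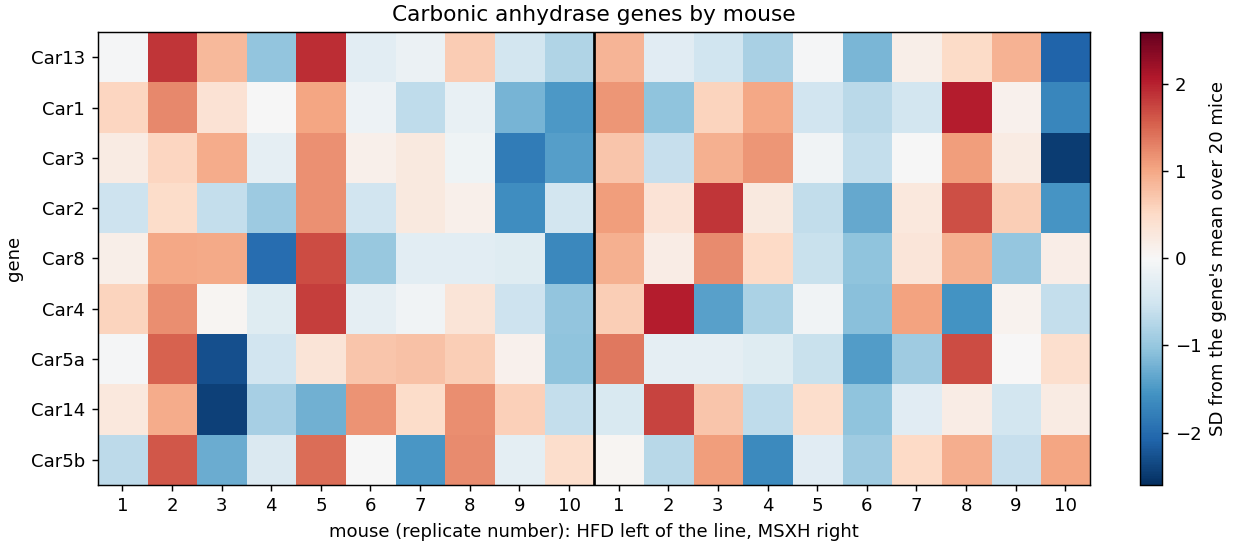
Level of each gene (rows) in each mouse (columns, HFD left and MSXH right), as SD from the gene's mean over 20 mice. MSXH replicate 10 is low in Car13, Car1, Car3 and Car2 but not in Car8 or Car5a, and HFD replicate 3 is low in Car5a and Car14.

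Many other genes moved with the family, so the pairs stand on a high background. The median absolute r with all other genes was 0.277 for Car3, 0.248 for Car1, 0.239 for Car2, 0.237 for Car8, 0.207 for Car14 and 0.199 for Car5a. For Car3, 143 genes (1.22%) had an absolute r above 0.8, and for Car14 there were 6. Likeness was measured as rho over the 20 mice after the diet means were removed. The genes most like Car3 were Sc5d, a desaturase of cholesterol synthesis (0.958), Hyi (0.941) and Akr1c6, an aldo-keto reductase (0.937). Those most like Car1 were Gamt, which makes creatine (0.958), Cryzl2 (0.923) and Ces1g, a carboxylesterase (0.910). For Car2 they were Alg5 (0.833), Alad, an enzyme of heme synthesis (0.833), and Ppp1ca (0.823). For Car5a they were Abhd12 (0.947), Man2c1 (0.910) and Lsm7 (0.907). For Car8 they were Slc9a3r1 (0.868), Ghr, the growth hormone receptor (0.859), and Tcea3 (0.856). For Car14 they were Cyp3a25, a cytochrome P450 (0.866), Aldh16a1 (0.856) and Exoc6 (0.839). None of these 18 genes passed the test between diets (limma adjusted p = 0.9998 for each).

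No enzyme that uses bicarbonate passed the test between diets either. Of 8 carboxylases, 0 passed the limma threshold in either direction and 0 had an unadjusted p under 0.05, with a median g of -0.089. They include Cps1, which starts the urea cycle (g = -0.010), Pcx, pyruvate carboxylase (-0.448), and Pcca of propionate breakdown (-0.306). Against the level of Car3 they went different ways, with 2 of 8 below an r of -0.5 and 1 above 0.5. Pccb, the partner subunit of Pcca, had r = 0.629 and Pcca 0.456. Cps1 had r = -0.764 (rho = -0.854) with Car3 and Acacb, an acetyl-CoA carboxylase that controls fat oxidation, -0.706 (rho = -0.859), within a background where 10.5% of genes had r below -0.5 and 10.6% above 0.5. Acacb also ran against Car8 (r = -0.794). With Car5a, 3 of the 8 had r above 0.5 and 0 had r below -0.5, where 6.28% and 2.92% of all genes did. The median r of the list with Car5a was 0.378. There Cps1 had r = 0.160 and Pcx 0.441, which fell to 0.155 without HFD replicate 3 and MSXH replicate 8. Acacb, Pccb and these pairs were singled out after their values had been seen, so no p is given.

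Among transporters of bicarbonate and protons, 18 of 21 were measured and 8 tested, and 0 passed in either direction (0 at an unadjusted p under 0.05, median g = 0.130). Slc16a1, a lactate and proton carrier, had g = 0.145, Slc4a4, the sodium bicarbonate cotransporter, -0.226, and Slc26a1, an anion exchanger, -0.205. Of the 7 other carbonic anhydrases, 3 lay just above the filter (Car7 at 6.58, Car11 at 6.67 and Car15 at 6.51) and 0 passed (0 at an unadjusted p under 0.05), with g of -0.507, -0.672 and -0.439. Car6, Car9, Car10 and Car12 lay below it.

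Markers of other cells were read because several family members are made outside hepatocytes, and in whole liver a change in cell number and one in RNA per cell cannot be told apart. None of these lists held a gene past the limma threshold. For red blood cells, 12 of 16 markers were measured and 6 lay above the filter. Hba-a1, an alpha globin gene, lay just above it at 6.54. The beta globin gene Hbb-bt had no probe set of its own, so the list says little about globin RNA. Bpgm had g = 0.981 (unadjusted p = 0.031), Klf1 0.307 and Alas2 -0.145. Alas2, the red cell enzyme of heme synthesis, correlated with Car1 (r = 0.756) and Car3 (0.768), but the median r of the list was 0.136 with Car1 and 0.164 with Car3. The mean level of the 12 ran from 6.5847 to 6.5848 in HFD and over the same range in MSXH. The part of red cells in these correlations was not tested.

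All 8 Kupffer cell markers, genes of the liver's resident macrophages, had r above 0 with Car3, and 7 had r above 0.5, where 10.6% of all genes had. The highest was Cd5l (r = 0.791, rho = 0.750, 0.681 without HFD replicate 9 and MSXH replicate 10). Next came Cd68 at 0.751, named for its value, while Csf1r at 0.668 and Vsig4 at 0.588 were named by level. With Car1 7 of 8 were above 0.5, where 9.87% of all genes were, and with Car2 1 of 8, where 7.46% were. With Car14 the median was -0.468. The mean level of the 8 ran from 8.521 to 8.522 in both diets, and their g from -0.323 to 0.153. Hepatocyte markers were divided: 4 of 9 had r below -0.5 with Car3, where 10.5% of all genes did. None had r above 0.5, and the median r was -0.141. The 4 were Hpd (-0.808), Tat (-0.610), Apoa1 (-0.570) and Hal (-0.560). The others were Apoh (-0.141), Alb (-0.043), Ttr (0.015), Cyp2e1 (0.040) and Fga (0.334). Alb, Ttr, Cyp2e1 and Apoa1 had SDs of only 0.050, 0.059, 0.029 and 0.055 millionths, against 78953 for Car3. The r of these nearly flat markers therefore says little. The mean level of the 9 ran from 13.37 to 13.38 in both diets. The part of either cell type in the spread of Car3 was not tested.

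Of 10 measured genes known to be higher in male liver, 6 had r above 0.5 with Car3 and 0 had r below -0.5, where 10.6% and 10.5% of all genes did, with a median of 0.541. The highest was Hsd3b5, a steroid dehydrogenase (r = 0.903, rho = 0.928, 0.834 without HFD replicate 9 and MSXH replicate 10). Nudt7 had r = 0.791 and Slco1a1, an organic anion transporter, 0.772. Without the same 2 mice these fell to 0.610 and 0.486, the latter below 0.5. These 3 were named after their values had been seen, while Gstp1 (0.260), Cyp2d9 (-0.074) and Mup3 (-0.110), named by the rule on level, and Cyp4a12a (0.395) did not reach 0.5. Between diets 0 of the 10 passed (0 at an unadjusted p under 0.05, median g = -0.054).

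Fat and skeletal muscle are rich in Car3, and their markers were read for that reason. Of 4 measured adipocyte markers, Adipoq (5.67) and Lep (6.23) lay below the filter, and Fabp4 (8.62), which macrophages and endothelium also make, had r = -0.069 with Car3. Retn lay at 6.77. All 8 muscle markers lay at 6.72 or lower, with a median r of 0.193 for the 4 above the filter, of which Acta1, named for its value, had g = -1.23 (unadjusted p = 0.013). Bile duct markers, of interest for Car2, had a median r of 0.059 with it over 4 genes. Endothelial markers, of interest for Car4, were above the filter in 15 of 15, Clec4g (10.59), Ptprb (9.32) and Stab2 (9.20) among them. Their g was above 0 in 14 of 15 (median 0.393), where that of 49.4% of all genes was. An unadjusted p under 0.05 was found for 1 of them (Ptprb, 0.032), and for 3.62% of all genes.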

How the data were processed

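Liver RNA was measured on 1 array per mouse, 10 HFD and 10 MSXH. The deposited table covers 45101 probe sets, in values read as log2 because the highest exceed the natural log (11.09) that a 16-bit scanner can reach. What the authors did to correct, normalize and summarise probes is not stated in the labels or files read, and centring and exact scale stay unknown. Precision is limited by the number of arrays.

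The platform annotation names 1 gene for 34945 of the non-control probe sets, several for 932 and none for 9160. Diets were tested by limma 3.58.1 (lmFit and eBayes, R 4.3.3), with p-values adjusted over all 11728 genes above the filter. Correlations used 100000 permutations of mice. Members, lists and tests were chosen with earlier results of these data known. Named genes were the members, the 3 of highest mean in each list, the 3 most like each member, and genes singled out after their values were seen, as stated. Procedures were tested on simulated data. In simulated independent genes, the limma test at the adjusted threshold recovered 14% of shifts of 1 SD, 36% of 1.5 SD, 62% of 2 SD and 100% of 3 SD. Diet differences of 1 to 2 SD could thus be missed. Alternatives were scaling, filter, probe set, variance model, array weights, replicate block, rank tests and leaving out each array. Figures used matplotlib 3.10.9. The labels do not say whether mice shared a cage or batch.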

Additional observations from a re-analysis of the deposited data

Results flagged for a closer look

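In 3 of 36 sets of 10 mice (18 probe sets in 2 diets), a single mouse stood apart by a gap test that chance passes in 5% of sets (1.8 expected). All 3 were probe sets of Car3 in MSXH. On 1449434_at replicate 10 was low, with a gap to the next mouse of 0.513 of the group's range. On 1430584_s_at and 1453588_at replicate 8 was high, with gaps of 0.484 and 0.510. These last probe sets follow each other closely (r = 0.983), so they count nearly as 1 observation. Without MSXH replicate 10 the g of Car3 was 0.387, and without MSXH replicate 8 it was -0.052, against 0.059 with all mice.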

How the results depend on the processing

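No carbonic anhydrase gene passed the threshold under any alternative run, and no gene of the table did. Of 261 alternative values of g for the 9 genes, 231 kept their sign and 30 turned, and the smallest adjusted p was 0.950. Changing only the filter, the variance model, the array weights or the test left each g as it was, so those signs could not turn. Nor could that of a gene with a single probe set when all probe sets of a gene were averaged. With arrays scaled to one median g was 0.071 for Car4 and 0.141 for Car5b, by quantiles 0.165 and 0.075, and with the mean of all probe sets 0.123 for Car5b. Leaving out 1 mouse gave g from -0.131 to 0.288 for Car1, -0.137 to 0.387 for Car3, -0.333 to 0.114 for Car5a, -0.285 to 0.062 for Car5b and -0.190 to 0.221 for Car14, ranges that cross 0. It gave 0.361 to 0.765 for Car2, 0.131 to 0.555 for Car8, -0.662 to -0.176 for Car4 and -0.637 to -0.313 for Car13. The count of genes at an unadjusted p under 0.05 was 425, but 140 after scaling arrays to one median and 128 by quantiles. Changing the features tested gave 780 (no filter), 197 (a filter at the 75th percentile) and 704 (all probe sets separately).

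Correlations that passed over 20 mice lost the adjusted threshold in several settings. Within HFD, of 10 mice, these were Car1 with Car2 (0.579) and Car8 (0.698), Car2 with Car3 (0.692) and Car8 (0.588), and Car3 with Car8 (0.667) and Car13 (0.706). Within MSXH, of 10 mice, they were Car1 with Car2 (0.785), Car8 (0.529) and Car13 (0.588), Car2 with Car8 (0.663) and Car13 (0.672), Car3 with Car8 (0.419) and Car13 (0.650), Car4 with Car13 (0.305) and Car5a with Car14 (0.150). Without the 2 farthest mice they were Car1 with Car2 (0.562) and Car13 (0.570), Car2 with Car13 (0.473), Car3 with Car13 (0.508) and Car5a with Car14 (0.408). With arrays scaled to one median they were Car1 with Car13 (0.322) and Car3 with Car13 (0.281), and by rho Car5a with Car14 (0.486), a setting listed after seeing the data. Fewer mice give less power, scaling to one median shifts Car13 over a wider range than its own, and the cause was not tested otherwise. None of the 11 correlations that had passed changed sign in these settings. Pairs that had not passed were not followed here, and some of them differ in sign between the diets.

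The labels do not pair mice by number, and r between the deviations of same-numbered mice ran from -0.133 to 0.369, with 3 of 10 pairs over 0.1. With the replicate block 0 genes passed, and 501 had an unadjusted p under 0.05. The difference over the residual SD of that model was 0.069 for Car3 and 0.458 for Car2. This is not the same measure as g, and values of this kind are among the alternatives counted above.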

Other observations

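Several pairs differed in r between the diets. The widest gap was Car1 with Car4, at r = 0.888 within HFD and -0.397 within MSXH. Car3 with Car4 had 0.762 and -0.211, and Car2 with Car4 0.771 and -0.057. Car8 and Car13 had r = 0.910 within HFD and 0.087 within MSXH. Car4 and Car8 had 0.827 and -0.115, and Car4 and Car13 0.889 and 0.305. On the other probe set of Car4, 1448949_at, r with Car1 was -0.181 within HFD and 0.214 within MSXH. There Car3 had -0.133 and 0.210, Car2 0.014 and 0.101, Car8 0.254 and 0.281, and Car13 0.087 and -0.388. On the other probe sets of Car13, Car8 had 0.435 and 0.332 (1421308_at), and -0.556 and 0.016 (1439620_at). The gaps thus depended on which probe set of Car4 or Car13 was read. The differences were not tested, these pairs were picked after their values were seen, and both Car4 and Car13 lay below the level filter.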
